A study of Mus musculus with 9 samples.

Results

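The lysosome genes described here are the rows of the expression table whose pathway annotation holds the KEGG term "Lysosome", leaving out Glb1, Npc1 and the symbols that start with Abc, Atp6 or Tcirg1. The term was attached to 146 genes, 14 of them were left out by this rule, and 132 of the 22322 genes of the table remained. The rule used annotation only and no expression value. RNA was sequenced from cultures of wild-type mouse cells sold as retinal ganglion cells (RGCs) in 3 groups with 3 libraries each. Normal RGCs were untreated cultures, aging RGCs were the same cells treated with D-galactose, and aging RGCs + USCs medium had D-galactose and then medium conditioned by human urine-derived stem cells (USCs), with those stem cells taken out. The RGCs were grown with fetal bovine serum and subcultured after purchase, so they are a model in a dish and not neurons taken from an eye. The stem cells were grown in a special medium of their own, and the paper does not state the serum content of the conditioned medium. No sequenced group had that medium without conditioning, so the base medium and what the stem cells released cannot be told apart. The paper describes the replicates as 3 wells per group, and their labels give a number and nothing on separate batches of cells. The p-values therefore measure the spread between these wells, which may be technical, and not between independent batches. Of 12 ganglion cell markers, Pou4f2 and Pou4f3 were listed at 0 in all 9 libraries and Thy1, Nefh and Slc17a6 stayed below 0.06 FPKM, whereas Rbpms, Nefl, Isl1 and Tubb3 were read in every library. Of 12 photoreceptor markers, 3 to 7 were read in a library with a summed level of 0.86 to 2.01 FPKM, and the defining genes Crx, Rcvrn, Arr3, Opn1mw and Prph2 were listed at 0 throughout. Of the retinal glia markers only Glul was above 0.2 FPKM.

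Lysosomes are acidic, membrane-bound organelles in which proteins, sugar chains, lipids and nucleic acids are broken down. Most soluble hydrolases receive a mannose 6-phosphate tag in the Golgi, are bound by sorting receptors, and leave in clathrin-coated vesicles built with AP and GGA adaptors. Membrane proteins such as LAMP1 line the organelle, and the transcription factors TFEB, TFE3 and MITF switch many of these genes on together when nutrients are short. In the retina the pathway is known for the clearance of autophagosomes, and inherited loss of single hydrolases causes storage diseases that often affect neurons.

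The libraries held between 19814236 and 22342283 counts (normal), 18189610 and 19556335 (aging) or 20238813 and 21054300 (USCs medium). The 132 genes took 1.07 to 1.08% of all counts of the normal libraries, 1.07 to 1.09% of the aging libraries and 0.924 to 0.937% of those with USCs medium, so the share with the medium lay below every other library. A filter on low counts left 101 of the 132 genes for testing among 12145 genes. Of the 31 genes that were not tested, 19 had no count in any library and no library gave another of them more than 22 counts. These scarce or silent members included the tissue-restricted cathepsins such as Cts3, Cts6, Cts7, Cts8, Ctsg and Ctsj, the sperm hyaluronidases Spam1 and Hyal5, the mucosal adaptor subunit Ap1m2 and the dendritic cell protein Lamp3. Levels are given as FPKM, fragments scaled to transcript length and to the mapped fragments of the library. Differences are log2 fold changes ± SE from edgeR's quasi-likelihood test on the counts, and a gene "rose" or "fell" when its Benjamini-Hochberg adjusted p over all 12145 genes was below 0.05.

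In aging RGCs against normal RGCs, 28 of the 101 tested lysosome genes rose, 26 fell and 47 did not pass the test. Over all genes tested, 46.5% passed, 23.6% upwards and 23% downwards, beside 53.5% of the tested lysosome genes. The median log2 fold change of the lysosome genes was 0.01, beside 0.00 over all genes. With USCs medium against aging RGCs, 17 rose, 51 fell and 33 did not pass, where the background was 53.1% in either direction, 27.1% upwards and 26% downwards. Here the median was -0.19, beside -0.01 over all genes. Against normal RGCs, the USCs medium libraries had 19 genes higher, 45 lower and 37 that did not pass, with a background of 60.5% in either direction, 30.6% upwards and 29.9% downwards and medians of -0.13 and -0.01. The 3 comparisons share libraries, so their values are set side by side and not counted as separate evidence. In bulk RNA, fewer cells of a type and less RNA per cell cannot be told apart.

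Most changes were small. In aging against normal RGCs, 2 lysosome genes rose and 7 fell by at least 1.5-fold, beside 3.1% and 4.82% of all genes, 7.91% in either direction. With USCs medium against aging RGCs the counts were 2 and 9, beside 3.47% and 8.34%, together 11.8%, and against normal RGCs they were 3 and 13, beside 4.57% and 11%, together 15.6%. The 3 libraries of a group did not overlap with the other 3 for 60 of the 101 genes in the first comparison, 75 in the second and 67 in the last, where the backgrounds were 53%, 59.8% and 63.8%. Scaling moved the split. Without TMM factors the median over all genes itself shifted to -0.08 with USCs medium against aging RGCs and to -0.11 against normal RGCs, and the counts became 10 up and 58 down, and 11 up and 63 down. Over all 12145 genes, 6545 and 7482 were then called in either direction, beside 6446 and 7350 with TMM factors. Their split into up and down without TMM factors was not counted.

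**Figure D1:**
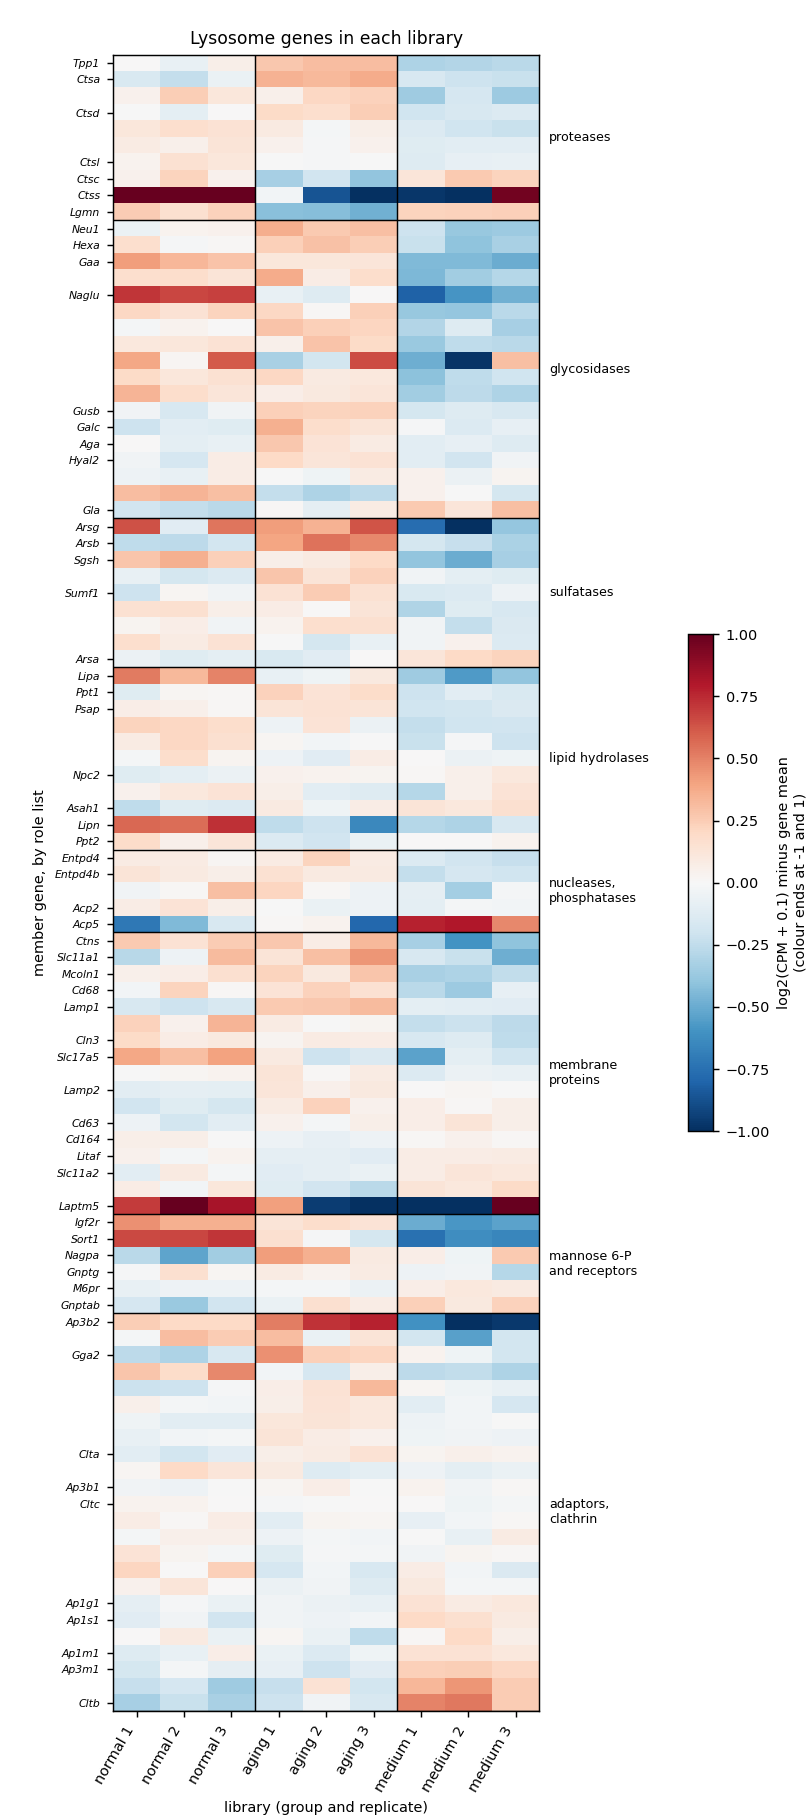
Each row is a tested lysosome gene with a role and each column a library, coloured by log2(CPM + 0.1) minus the gene's mean over the 9 libraries (red above, blue below). The genes named in the text are labelled. Rows are grouped by role and ordered by the difference between USCs medium and aging RGCs, and most glycosidases and sulfatases are blue in the 3 medium columns.

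The promoters of several members hold the CLEAR element, the short palindromic site that TFEB and its relatives bind, which is known from the promoters of lysosomal genes, so its presence is background here and not a result. The letters GTCACGTGA, on either strand, stood within 250 bases before to 50 bases after the start site in 9 of the 104 members with a RefSeq promoter (8.65%), and in 242 of 27025 genes (0.895%). The shorter TCACGTG, which lies inside the longer motif, stood in 18 of them (17.3%) against 1160 genes (4.29%). Among genes that were tested, the long motif stood in 9 of 82 members (10.98%) and 180 of 9640 genes (1.87%), and the shorter in 21.95% and 6.86%. The 9 genes with the long motif were Cd164, Cln3, Ctsa, Ctsd, Gla, Gnptg, Igf2r, Mcoln1 and Sumf1. The stretches below are shown for genes that the results turn on, 5′ to 3′ on the gene's strand in GRCm38, with every TCACGTG or its reverse complement in capitals.
Lamp1 (chr8:13159079-13159160, plus strand): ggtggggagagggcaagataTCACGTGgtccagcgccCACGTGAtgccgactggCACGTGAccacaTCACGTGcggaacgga
Igf2r (chr17:12769707-12769775, minus strand): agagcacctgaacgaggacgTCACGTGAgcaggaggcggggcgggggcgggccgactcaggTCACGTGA
Ctsa (chr2:164833749-164833772, plus strand): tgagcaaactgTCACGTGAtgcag
Ctsd (chr7:142387908-142387937, minus strand): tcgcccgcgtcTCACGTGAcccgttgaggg
Mcoln1 (chr8:3500462-3500491, plus strand): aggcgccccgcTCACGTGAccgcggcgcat
Sumf1 (chr6:108185584-108185615, minus strand): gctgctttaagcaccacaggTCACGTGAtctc
Gaa (chr11:119267802-119267848, plus strand): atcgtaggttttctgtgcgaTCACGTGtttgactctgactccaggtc
Naglu (chr11:101070009-101070037, plus strand): caaccttcaggTCACGTGgcccgaggtcg
Lgmn (chr12:102439116-102439162, minus strand): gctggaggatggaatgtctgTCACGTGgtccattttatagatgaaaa
Lamp1 held 4 copies at 62, 45, 28 and 16 bases before its start site and Igf2r held 2. Ctsa, Ctsd and Mcoln1 held 2 each as well, and not every copy of these is shown above. Genes with the same letters moved in different directions: of the 18 with TCACGTG, 7 rose and 6 fell in aging RGCs, and 4 rose and 11 fell with USCs medium against aging RGCs. Of the 64 tested members with a promoter but without these letters, 18 rose and 16 fell, and 9 rose and 31 fell. Beside these, 23.6% of all genes tested rose and 23% fell in aging RGCs. The background with USCs medium against aging RGCs was 27.1% upwards and 26% downwards.

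Among the proteases, 10 of 25 genes were tested. In aging RGCs 3 rose and 5 fell, and with USCs medium 2 rose and 7 fell against aging RGCs. These were 80% and 90% of the tested proteases, beside 46.5% and 53.1% of all genes. The cathepsin list summed to 1090 ± 17.96 FPKM (SD, n = 3) in normal RGCs, 1060 ± 6.64 in aging RGCs and 899 ± 19.6 with USCs medium. Ctsa, protective protein cathepsin A, which shields neuraminidase, was at 88.2, 83.1 and 95.6 FPKM in normal RGCs, 124, 126 and 129 in aging RGCs and 86.5, 81.1 and 84.8 with USCs medium. The aging libraries stood above all others, whereas the normal and medium libraries overlapped. Its log2 fold change was 0.50 ± 0.04 in aging RGCs (adjusted p = 1.41e-11) and -0.55 ± 0.04 with the medium (adjusted p = 1.69e-12). Tpp1, a peptidase that trims tripeptides from protein ends, had 31.7, 27.6 and 31.3 FPKM in normal RGCs, 35.4, 37.1 and 36.9 in aging RGCs and 21.8, 22.03 and 22.9 with USCs medium. It rose by 0.30 and then fell to below normal RGCs, at -0.59 ± 0.04 against aging RGCs (adjusted p = 2.35e-12). Ctsd, the main aspartic protease of the lysosome, was at 176, 164 and 176 FPKM in normal RGCs, 199, 195 and 205 in aging RGCs and 142, 147 and 149.9 with the medium, with log2 fold changes of 0.23 ± 0.03 and -0.37 ± 0.03. Ctsa overlaps Neurl2 and Pltp on the other strand and Ctsd shares bases with the model Gm49369, and their counts hold fractions in all 9 libraries, so reads of the shared bases may be split. The same limit holds for other members, as 20 had a fractional count in some library. Among them were Acp2 and Gnptg in 9 libraries, Ctsl in 8, Sgsh in 5 and Lamp1 in 3, which also overlap other genes.

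Both proteases that went the other way are linked to activation of other enzymes. Lgmn encodes legumain, which cuts after asparagine and matures several cathepsins, and was at 86.6, 80.6 and 83.9 FPKM in normal RGCs, 53.7, 52.9 and 50.8 in aging RGCs and 78.04, 78.6 and 79.7 with USCs medium. The aging libraries lay below all others and the remaining 6 stood close together. Its log2 fold changes were -0.66 ± 0.04 (adjusted p = 4.27e-14) and 0.67 ± 0.04 (adjusted p = 2.10e-14), with 0.01 ± 0.04 between the medium and normal RGCs (adjusted p = 0.751). Ctsc, cathepsin C, the activator of serine proteases of immune granules, followed the same order with 12.8, 13.8 and 12.8 FPKM in normal RGCs, 9.31, 11.1 and 9.08 in aging RGCs and 12.02, 13.9 and 14.3 with the medium. It fell by 0.41 ± 0.07 on the log2 scale in aging RGCs and rose by 0.51 ± 0.07 with the medium. Ctsl, the most abundant lysosome gene of the table at 397, 456 and 415 FPKM in normal RGCs, was at 375, 381 and 375 FPKM in aging RGCs and 329, 331 and 352 FPKM with USCs medium. Its step from aging RGCs to the medium, -0.09 ± 0.03, had an adjusted p of 0.0179, which became 0.0502 without aging replicate 1, 0.0552 without aging replicate 3 and 0.113 without medium replicate 1.

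**Figure D2:**
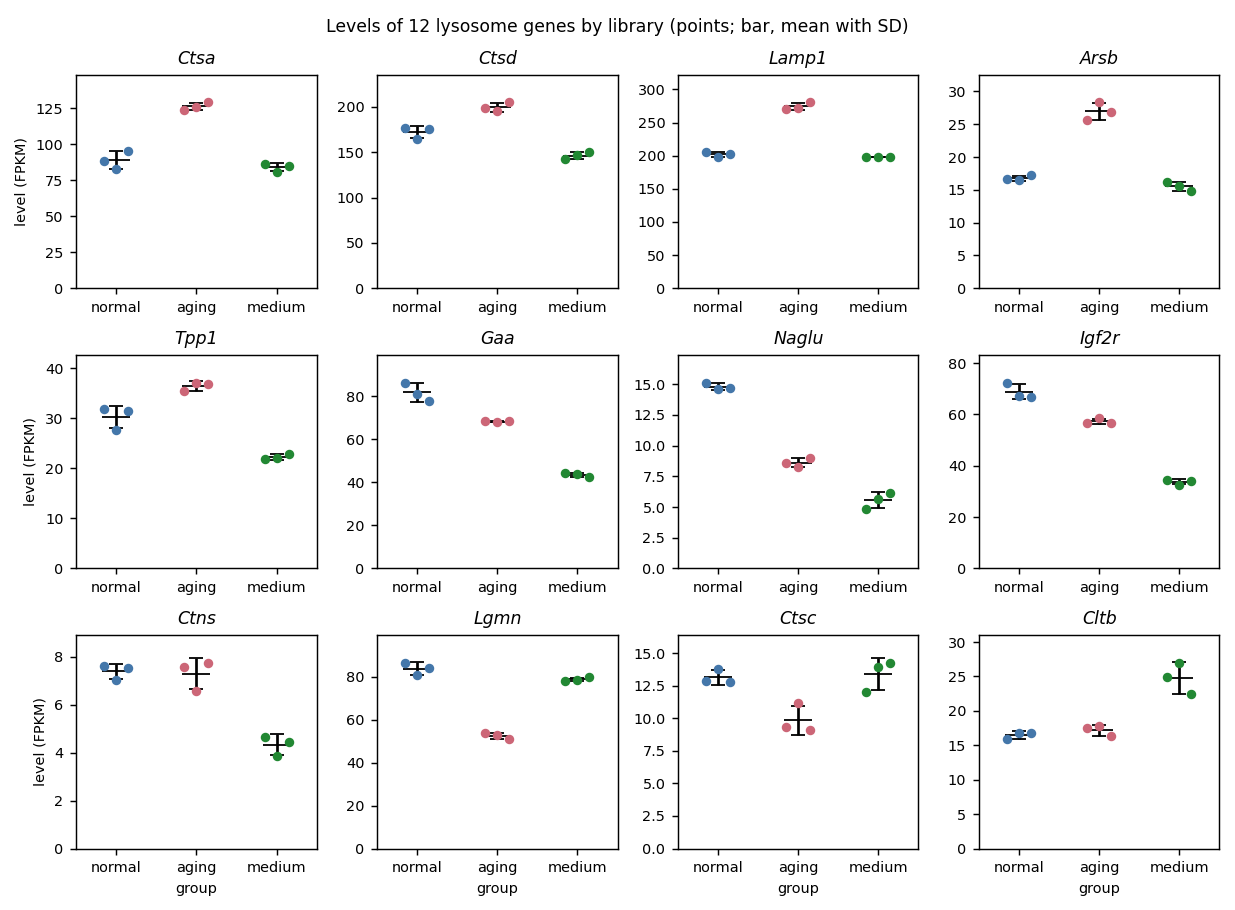
FPKM of 12 lysosome genes in the 3 groups, with a point for each library and a bar for the mean with its SD (n = 3). Ctsa, Ctsd, Lamp1, Arsb and Tpp1 are highest in the aging libraries, Lgmn and Ctsc lowest there, and Gaa, Naglu and Igf2r step down from normal to aging to medium.

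The glycosidases, which trim sugars from glycoproteins, glycolipids and glycogen, had 18 of 23 genes tested. With USCs medium against aging RGCs 14 fell and 2 rose, and over every alternative fit 13 to 15 fell and 0 to 2 rose. Their summed level was 326 ± 6.64 FPKM in normal RGCs, 316 ± 5.08 in aging RGCs and 237 ± 1.79 with USCs medium, 25.1% lower than in aging RGCs by the means. In aging RGCs 8 had risen and 3 had fallen. The share called was 61.1% in aging RGCs and 88.9% with the medium, beside 46.5% and 53.1% of all genes. Gaa, the acid glucosidase of glycogen and the most abundant of the list, was at 86.3, 81.04 and 77.7 FPKM in normal RGCs, 68.4, 67.8 and 68.3 in aging RGCs and 44.3, 43.8 and 42.3 with USCs medium. The 3 groups did not overlap, and its log2 fold changes were -0.23 ± 0.04 (adjusted p = 4.46e-06) and -0.58 ± 0.04 (adjusted p = 2.34e-13). Naglu, which removes N-acetylglucosamine from heparan sulfate, stepped down in the same way from 15.1, 14.6 and 14.7 FPKM in normal RGCs to 8.61, 8.24 and 9.01 in the aging ones and then 4.85, 5.66 and 6.14 with the medium. Between USCs medium and normal RGCs its log2 fold change was -1.32 ± 0.08 (adjusted p = 1.57e-14).

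Hexa, which takes part in the breakdown of the ganglioside GM2, was at 28.9, 25.3 and 25.6 FPKM in normal RGCs, 29.9, 30.9 and 29.7 in aging RGCs and 20.4, 17.97 and 19.1 with USCs medium. It rose by 0.20 and then fell, at -0.58 ± 0.06 (adjusted p = 2.81e-09). Neu1, the neuraminidase that removes sialic acid and works in a complex with cathepsin A, went from 6.8, 7.23 and 7.24 FPKM in normal RGCs to 8.96, 8.32 and 8.56 in the aging ones and then 5.66, 5.03 and 5.13 with the medium. With USCs medium it lay below every library of both other groups, at -0.63 ± 0.08 against aging RGCs (adjusted p = 2.68e-07). Gusb, β-glucuronidase, Galc, the galactosylceramidase of myelin lipids, and Aga, which cuts the bond between sugar and asparagine, rose by 0.30, 0.37 and 0.22 in aging RGCs and were -0.39, -0.30 and -0.27 with the medium. Between the medium and normal RGCs none of these 3 passed, with -0.08, 0.07 and -0.05.

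One of the glycosidases that rose with USCs medium was the α-galactosidase Gla. It was at 6.15, 6.62 and 5.83 FPKM in normal RGCs, 7.04, 6.5 and 7.34 in aging RGCs and 7.87, 7.14 and 9.8 with the medium, and the step from aging RGCs was 0.23 ± 0.08 (adjusted p = 0.0131). That call was lost without aging replicate 2 (adjusted p = 0.0715) and without medium replicate 3 (adjusted p = 0.0619). It also missed the threshold without TMM factors (adjusted p = 0.101) and by limma on log2(FPKM + 1) and log2(FPKM + 0.1) (adjusted p = 0.109 and 0.105). For Hyal2 the deposited FPKM and the counts went apart: its count-based change was -0.27 ± 0.08 with the medium, whereas the FPKM of 13.3, 12.8 and 12.7 in aging RGCs and 10.8, 16.1 and 12.8 with the medium overlapped.

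Of the sulfatases and other enzymes that act on sulfated chains, all 9 genes were tested. In aging RGCs 3 rose and 2 fell, and with USCs medium 7 fell and 1 rose. Called were thus 55.6% and 88.9% of the list, beside 46.5% and 53.1% of all genes. The counts with the medium were the same under every alternative fit, whereas those that fell in aging RGCs numbered 0 to 2. The list summed to 121 ± 1.91 FPKM in normal RGCs, 139 ± 2.14 in aging RGCs and 111 ± 0.682 with the medium. Arsb, arylsulfatase B of dermatan and chondroitin sulfate, had the largest rise of all tested lysosome genes in aging RGCs. It was at 16.6, 16.4 and 17.2 FPKM in normal RGCs, 25.7, 28.3 and 26.9 in aging RGCs and 16.2, 15.6 and 14.8 with USCs medium, so the aging libraries stood apart from the other 6. Its log2 fold changes were 0.71 ± 0.05 (adjusted p = 1.08e-12) and -0.72 ± 0.05 (adjusted p = 7.22e-13), with -0.01 ± 0.05 between the medium and normal RGCs. Sumf1, the enzyme that activates all sulfatases, had the same order at lower size, with 0.26 and -0.30. Sgsh, the sulfamidase of heparan sulfate, stood at 6.91, 7.25 and 6.64 FPKM in normal RGCs, 5.83, 5.92 and 6.36 in aging RGCs and 4, 3.72 and 4.22 with the medium and was lowest with the medium, at -0.53 ± 0.07 against aging RGCs. Arsg, a further heparan sulfate sulfatase, was scarce, at 0.83, 0.48 and 0.77 FPKM in normal RGCs, 0.92, 0.71 and 0.94 in aging RGCs and 0.33, 0.18 and 0.37 with the medium, and its change with the medium was -1.33 ± 0.30 (adjusted p = 5.27e-04). Arsa, arylsulfatase A of the myelin lipid sulfatide, was the exception that rose, with 20.1, 20.5 and 22.8 FPKM in aging RGCs, 22.7, 25.8 and 24.8 FPKM with the medium and a change of 0.27 ± 0.05 (adjusted p = 3.15e-05).

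**Figure D3:**
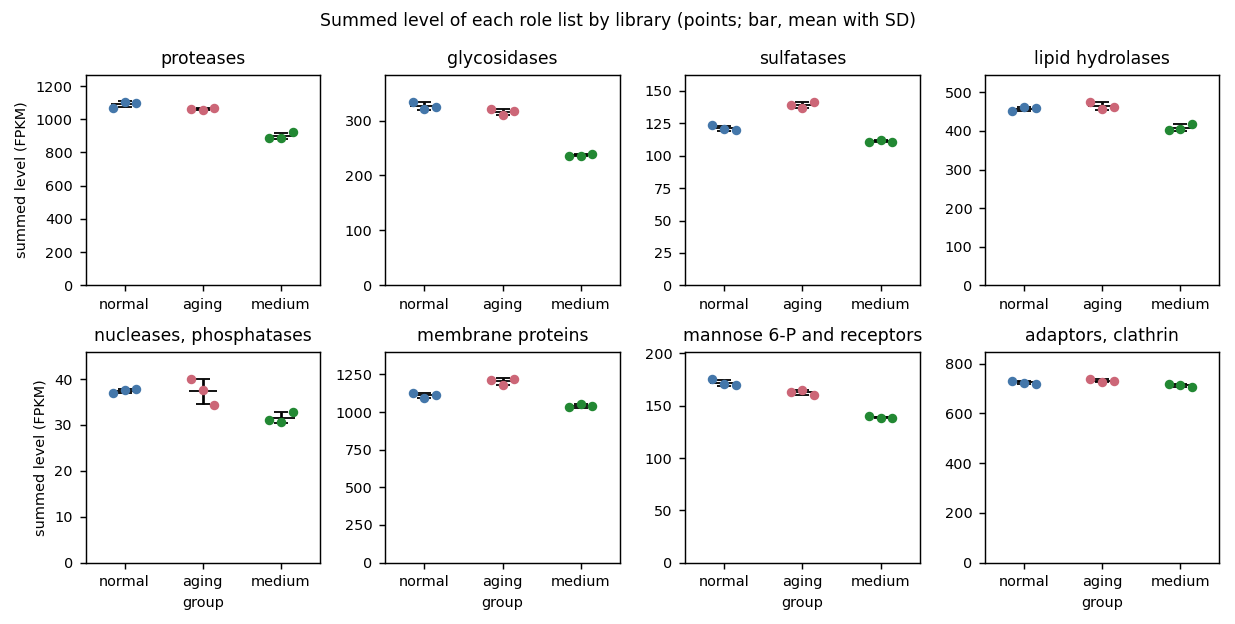
Summed FPKM of the measured genes of each role list, with a point for each library and a bar for the mean with its SD (n = 3). The glycosidase sum is 237 FPKM with USCs medium against 316 in aging RGCs, and the sulfatase sum is highest in the aging libraries.

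The lipid hydrolases and their activators had 11 of 13 genes tested, 4 up and 5 down in aging RGCs and 1 up and 4 down with USCs medium. These were 81.8% and 45.5% of the tested genes, beside 46.5% and 53.1% of all genes. The share called with the medium was thus below that background. Lipa, the acid lipase that frees cholesterol from cholesteryl esters, stepped down from 15.3, 13.3 and 14.98 FPKM per normal library to 9.98, 10.2 and 11.2 in aging RGCs and 7.73, 6.7 and 7.61 with USCs medium. The groups did not overlap, and the changes were -0.46 ± 0.07 (adjusted p = 3.70e-06) and -0.43 ± 0.07 (adjusted p = 1.81e-05). Lipn, a lipase of the same family known from skin, was at 12.8, 12.8 and 13.8 FPKM in normal RGCs, 7.26, 7.3 and 5.3 in aging RGCs and 6.9, 5.6 and 7.46 with the medium. It fell by 0.99 ± 0.12 in log2 units in aging RGCs, and the step to the medium did not pass (0.11 ± 0.13, adjusted p = 0.501). Psap, the precursor of the saposins that present lipids to their enzymes, was at 153, 149.9 and 146 FPKM in normal RGCs, 157, 158 and 156 in aging RGCs and 118, 119 and 123.21 with the medium. With the medium it fell, at -0.31 ± 0.03 (adjusted p = 2.36e-09). Npc2, which hands cholesterol to the lysosomal membrane, and Asah1, the acid ceramidase, rose by 0.13 and 0.21 in aging RGCs, and their values with the medium against aging RGCs were 0.02 ± 0.03 and 0.09 ± 0.04, which did not pass. The palmitoyl thioesterases Ppt1 and Ppt2 moved oppositely, with 0.21 and then -0.34 for Ppt1 and -0.25 and then 0.14 for Ppt2.

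Of the nucleases and phosphatases, 5 of 6 genes were tested. Entpd4 and Entpd4b, near-identical copies of an apyrase gene between which reads may be split, were -0.32 and -0.31 with USCs medium against aging RGCs. Acp5, the tartrate-resistant acid phosphatase, was scarce at 0.66, 0.83 and 1.04 FPKM in normal RGCs, 1.18, 1.16 and 0.62 in aging RGCs and 1.89, 1.93 and 1.54 with the medium. The medium libraries stood above the other 6, at 0.94 ± 0.28 against aging RGCs (adjusted p = 0.0056) and 1.18 ± 0.28 against normal RGCs (adjusted p = 6.36e-04). Acp2, the lysosomal acid phosphatase, was at 13.8, 14.4 and 14.3 FPKM in normal RGCs, 14.8, 13.2 and 12.5 in aging RGCs and 11.2, 11.98 and 13.5 with the medium, and its change in aging RGCs was -0.13 ± 0.05, a call lost without normal replicate 1 or 2 or aging replicate 2 or 3 (adjusted p = 0.0563, 0.113, 0.109 and 0.101). It was also lost with DESeq2 (0.0662), without the low-count filter (0.0642) and by limma on log2(FPKM + 1) and log2(FPKM + 0.1), where the change was -0.07 on both scales (adjusted p = 0.516 and 0.512).

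Among the membrane proteins and transporters 17 of 18 genes were tested, with 4 up and 5 down in aging RGCs and 3 up and 9 down with USCs medium. That was 52.9% and 70.6% of the tested genes, beside 46.5% and 53.1% of all genes. Lamp1, which coats the inner face of the lysosomal membrane, was at 205, 198 and 203 FPKM in normal RGCs, 271, 272 and 280.4 in aging RGCs and 198, 197 and 198 with USCs medium. The aging libraries lay above all others, and the changes were 0.46 ± 0.03 (adjusted p = 5.16e-13) and -0.39 ± 0.03 (adjusted p = 1.10e-11). The difference between the medium and normal RGCs, 0.07 ± 0.03, was borderline (adjusted p = 0.04898). It passed with DESeq2, with relative log expression factors and without normal replicate 1, missed the threshold under the other alternatives tried, and turned to -0.03 without TMM factors and in FPKM. Lamp2, its relative that also serves chaperone-mediated autophagy, rose by 0.19 ± 0.03 in aging RGCs and changed by -0.09 ± 0.03 with the medium. Cd63, a tetraspanin of late endosomes and exosomes and the most abundant of the list, was at 267, 244 and 256 FPKM in normal RGCs, 281, 267 and 282 in aging RGCs and 268, 280.3 and 268 with the medium, with 0.14 ± 0.04 in aging RGCs (adjusted p = 0.00266) and 0.06 ± 0.04 with the medium (adjusted p = 0.192).

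Of the transporters, Ctns, Mcoln1 and Slc11a1 fell with the medium and had not passed in aging RGCs. Ctns, the cystine exporter, had 7.61, 7.04 and 7.51 FPKM in normal RGCs, 7.57, 6.56 and 7.75 in aging RGCs and 4.67, 3.84 and 4.46 with USCs medium. The first 2 groups overlapped and the medium libraries lay below both, at -0.67 ± 0.09 against aging RGCs (adjusted p = 6.16e-07). Mcoln1, the calcium channel TRPML1 of the lysosome, changed by -0.50 ± 0.08 (adjusted p = 3.34e-06) and Slc11a1, a metal ion transporter of phagocytes, by -0.59 ± 0.16 (adjusted p = 0.00314). Slc17a5, the sialic acid exporter, fell in aging RGCs, from 3.83, 3.59 and 3.84 FPKM to 3.06, 2.46 and 2.58 FPKM, at -0.46 ± 0.12 (adjusted p = 0.00244), and was at 1.85, 2.52 and 2.37 FPKM with the medium. Cd164, Litaf and Slc11a2 were the 3 membrane genes that rose with the medium, by 0.08, 0.18 and 0.19.

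All 6 genes of the mannose 6-phosphate route were tested. Igf2r, the large receptor that carries tagged hydrolases and also binds IGF2, stepped down from 72.4, 67.3 and 66.97 FPKM per normal library to 56.7, 58.5 and 56.8 in the aging ones and 34.6, 32.6 and 34.1 with USCs medium. The groups did not overlap, with changes of -0.24 ± 0.03 (adjusted p = 7.27e-07), -0.69 ± 0.03 (adjusted p = 9.08e-16) and -0.93 ± 0.03 between the medium and normal RGCs (adjusted p = 8.35e-19). Igf2r overlaps the antisense transcript Airn, and whether the counting used strand is not given in the sources used here. M6pr, the small receptor for the same tag, was at 74.9, 75.5 and 74.99 FPKM in normal RGCs, 76.5, 76.2 and 73.9 in aging RGCs and 76.3, 78.6 and 78.2 with the medium. Its change with the medium was 0.12 ± 0.03 (adjusted p = 0.00393), and it missed the threshold without TMM factors and by limma on both FPKM scales. Sort1, sortilin, which sorts hydrolases without the tag, went down at both steps, from 2.07, 2.07 and 2.12 FPKM in normal RGCs to 1.43, 1.26 and 1.13 in the aging ones and then 0.71, 0.78 and 0.77 with the medium, by -0.69 ± 0.11 and -0.68 ± 0.12. Nagpa, which uncovers the tag, rose from 2.53, 2.11 and 2.38 FPKM to 4.02, 3.84 and 3.18 FPKM in aging RGCs, at 0.68 ± 0.14 (adjusted p = 2.65e-04). Gnptab, which encodes the catalytic part of the tagging enzyme, rose by 0.30 ± 0.06, while the change of its γ subunit Gnptg was 0.01 ± 0.08 and did not pass.

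Of the adaptors and the clathrin coat, 24 of 25 genes were tested. In aging RGCs 4 rose and 3 fell, and with USCs medium 6 rose and 6 fell. These were 29.2% and 50% of the tested adaptor and clathrin genes. Both shares lay below the 46.5% and 53.1% of all genes. Cltc, the clathrin heavy chain, was at 199.8, 196 and 194 FPKM in normal RGCs, 191, 194 and 190.5 in aging RGCs and 184, 171 and 182 with the medium, and passed in no comparison. Without TMM factors it was lower with the medium, by -0.10 against aging RGCs, and by limma on both FPKM scales it was called lower too. The light chains parted at the step from aging RGCs to the medium. Clta rose by 0.23 ± 0.04 in aging RGCs (adjusted p = 2.01e-05), and its step to the medium did not pass. Without TMM factors that step of Clta was called lower, at -0.14 (adjusted p = 0.00425), as it was by limma on both FPKM scales. Against normal RGCs Clta and Cltb were both higher with the medium, a call that Clta lost under the same 3 alternatives. Cltb was at 15.8, 16.8 and 16.8 FPKM in normal RGCs, 17.5, 17.9 and 16.3 in aging RGCs and 24.9, 27.01 and 22.5 with the medium. All medium libraries of Cltb stood above the other 6, at 0.56 ± 0.07 against aging RGCs (adjusted p = 5.86e-08). Gga2, a Golgi adaptor that binds the sorting receptors, was at 3.23, 3.19 and 3.52 FPKM in normal RGCs, 5.37, 4.52 and 4.44 in aging RGCs and 3.77, 3.49 and 3.13 with the medium, with changes of 0.55 ± 0.09 and -0.37 ± 0.09. Ap3b2, the neuronal β subunit of the AP-3 complex, was scarce at 1.27, 0.86 and 1 FPKM in normal RGCs, 1.18, 1.07 and 1.98 in aging RGCs and 0.68, 0.27 and 0.3 with the medium, and its change with the medium, -1.61 ± 0.23 (adjusted p = 9.23e-07), was the largest fall of any tested lysosome gene in that comparison. Its widely used partner Ap3b1 did not pass (-0.02 ± 0.04). Ap3m1, Ap1s1, Ap1m1 and Ap1g1, subunits of AP-3 and AP-1, rose with the medium by 0.36, 0.19, 0.21 and 0.17, of which Ap3m1 overlaps Vcl on the other strand and missed the threshold by limma on log2(FPKM + 1).

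**Figure D4:**
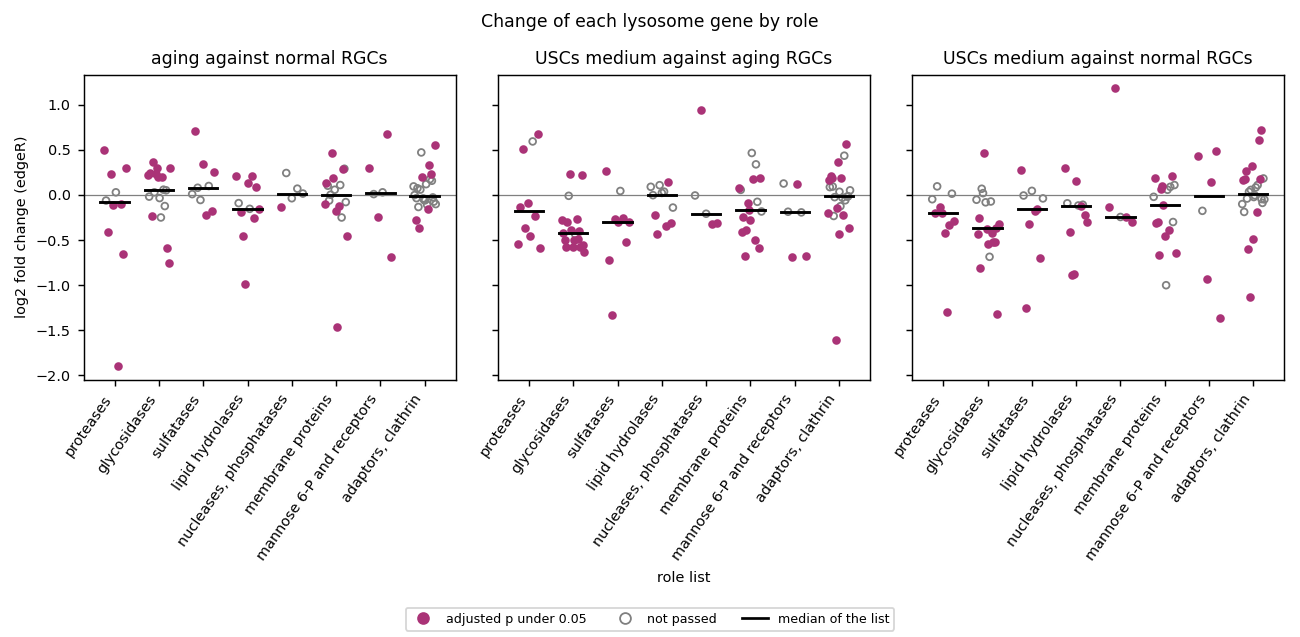
Log2 fold change of each tested lysosome gene with a role, by role list, in the 3 comparisons (edgeR, filled points for adjusted p under 0.05, open points for the others, black bar for the median of the list). The glycosidase median is -0.43 with USCs medium against aging RGCs, and the adaptor median is near 0.

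Some lysosome genes are abundant in macrophages, and markers of that cell type that are no members moved with the groups. The 18 macrophage markers summed to 41.3 to 60.03 CPM among the normal libraries, 25.9 to 34.2 CPM among the aging libraries and 22.6, 21.1 and 44.8 CPM with USCs medium, with medium replicate 3 above the others of its group. C1qb and C1qc were listed at 0 in the 3 aging libraries and in medium replicates 1 and 2. Of the 12 markers tested, 8 fell and 1 rose in aging RGCs, 75% beside 46.5% of all genes. With USCs medium against aging RGCs 2 fell and 3 rose, 41.7% beside 53.1% of all genes. Against normal RGCs 7 fell and 1 rose, 66.7% beside 60.5%. Ctss, a cathepsin of antigen-presenting cells, was at 4.06, 4.67 and 4.13 FPKM in normal RGCs, 1.79, 0.96 and 0.68 in aging RGCs and 0.83, 0.63 and 3.43 with the medium, and it too was high in medium replicate 3. It fell by 1.90 ± 0.36 on the log2 scale in aging RGCs (adjusted p = 8.01e-05), and its change between the medium and normal RGCs, -1.30 ± 0.34 (adjusted p = 0.00141), was -2.44 without medium replicate 3 and lost its call with DESeq2 (adjusted p = 0.092). Laptm5, a lysosomal protein of blood cells, was at 0.88, 0.99 and 0.83 FPKM in normal RGCs, 0.56, 0.28 and 0.2 in aging RGCs and 0.13, 0.18 and 0.75 with the medium. Its change in aging RGCs was -1.47 ± 0.49 (adjusted p = 0.0148), and the call was lost with DESeq2 (adjusted p = 0.129), when normal replicate 2 was left out (0.0538), and likewise for aging replicate 2 (0.0806) or 3 (0.0924). These were the 2 members below a log2 fold change of -1 in aging RGCs, and of all genes 1.09% rose and 1.56% fell past that size, 2.65% in all. Cd68, which is abundant in macrophages but was at 30.3, 35.8 and 30.8 FPKM in normal RGCs, changed by -0.41 ± 0.07 with the medium. The part of macrophage RNA in these changes was not tested. The ganglion cell, glia and photoreceptor markers also moved. The 12 ganglion cell markers summed to 61.6 to 63.2 FPKM in the normal libraries, 43.3 to 46.6 in the aging ones and 44.2 to 46.97 with USCs medium, and 4 of the 5 tested fell in aging RGCs. With USCs medium against aging RGCs 1 of these 5 rose and 1 fell, with log2 fold changes from -1.15 to 3.03. Against normal RGCs 1 rose and 3 fell, with log2 fold changes from -1.88 to 2.25. The shares of the tested ganglion cell markers called were 80%, 40% and 80% in these 3 comparisons, beside 46.5%, 53.1% and 60.5% of all genes. With the medium against aging RGCs that share was thus below the background. The 6 retinal glia markers summed to 36.7 to 41.02, 35.01 to 37.9 and 44.6 to 49.5 FPKM in the same order, and Glul, the marker that was tested, rose with the medium. The photoreceptor markers summed to 1.01 to 1.73, 1.67 to 2.01 and 0.86 to 1.41 FPKM, and the 2 that were tested rose in aging RGCs by 0.80 and 1.09. The part of these cell types in the lysosome gene changes was not tested either. Without Ctss, Laptm5, Cd68, Slc11a1 and Acp5, the tested members abundant in macrophages, the counts were 28 up and 24 down of 96 in aging RGCs, and 16 up and 49 down with USCs medium, or 18 up and 43 down against normal RGCs.

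Few members were past an absolute log2 fold change of 1. With USCs medium against aging RGCs 2 were, Ap3b2 and Arsg, both lower, beside 1.24% of all genes up and 4.21% down (5.44% in either direction). Against normal RGCs, Acp5 rose and Sort1, Naglu, Ctss, Ap3b2 and Arsg fell, beside 1.47% up and 5.24% down (6.72% in either direction).

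The factors that act on lysosome genes and the nutrient sensors on the lysosomal surface had 21 of 23 genes tested. In aging RGCs 8 rose and 7 fell, and with USCs medium 5 rose and 10 fell against aging RGCs, 71.4% of the tested genes each time beside 46.5% and 53.1% of all genes. Tfeb was at 9.23, 7.75 and 8.15 FPKM in normal RGCs, 7.18, 7.05 and 6.63 in aging RGCs and 9.49, 8.97 and 9.31 with USCs medium, with changes of -0.30 ± 0.08 (adjusted p = 0.00342) and 0.52 ± 0.08 (adjusted p = 5.20e-06). The aging libraries were the lowest for Tfeb. Tfe3 went from 33.8, 32.4 and 33.3 FPKM in normal RGCs to 24.3, 22.9 and 23.7 in the aging ones and then 22.7, 21.1 and 20.4 with the medium. It fell by 0.38 ± 0.05 in aging RGCs, and its step to the medium did not pass in counts (0.00 ± 0.05) but was -0.14 in FPKM (adjusted p = 0.0336 by limma). Mitf changed by -0.47 ± 0.07 in aging RGCs and 0.22 ± 0.07 with the medium (adjusted p = 0.00853, and 0.0523 without aging replicate 3). The rise of Mitf with the medium was also lost without TMM factors (0.14, adjusted p = 0.0851) and by limma on log2(FPKM + 1) and log2(FPKM + 0.1) (0.11 and 0.13, adjusted p = 0.372 and 0.358). RNA levels say nothing of where these factors were in the cell, which sets their activity.

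Rragd, a Rag GTPase that recruits mTORC1 and is itself known as a TFEB target, was at 3.42, 4.11 and 3.44 FPKM in normal RGCs, 3.51, 3.34 and 3.02 in aging RGCs and 1.34, 1.61 and 1.05 with USCs medium. The medium libraries lay below the other 6, at -1.24 ± 0.12 (adjusted p = 8.36e-10). Flcn and Fnip1, which form the complex that activates the RagC and RagD proteins, rose by 0.34 and 0.25 in aging RGCs and then were -0.73 ± 0.07 and -0.53 ± 0.05 with the medium (adjusted p = 6.94e-10 and 8.11e-11). The Ragulator anchor Lamtor1 and the mTOR complex subunit Mlst8 rose in aging RGCs by 0.54 and 0.60 and fell with the medium, at -0.28 and -0.32. Rheb, the GTPase that switches mTORC1 on, moved the other way, from 49.95, 56.5 and 50.9 FPKM in normal RGCs to 38.1, 35.1 and 37.5 in the aging ones and then 40.5, 48.2 and 47.9 with the medium, at -0.49 ± 0.06 and 0.38 ± 0.06.

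**Figure D5:**
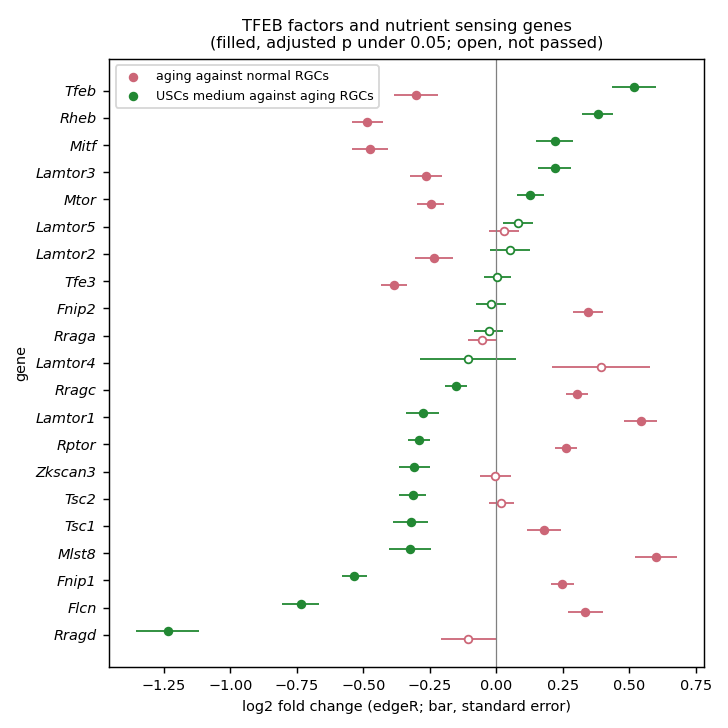
Log2 fold change (edgeR, bar for the SE) of the 21 tested TFEB factors and nutrient sensing genes in aging against normal RGCs (red) and USCs medium against aging RGCs (green), with filled points for adjusted p under 0.05. Tfeb and Rheb are below 0 in aging RGCs and above 0 with the medium, Flcn and Fnip1 the reverse.

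Autophagy genes, whose products deliver cargo to the lysosome, were all tested. Of 39 genes 4 rose and 18 fell in aging RGCs, and 6 rose and 13 fell with USCs medium against aging RGCs. These were 56.4% and 48.7% of the list, beside 46.5% and 53.1% of all genes, so the share called with the medium was below that background. Sqstm1, the cargo receptor p62, stepped down from 521, 601 and 528 FPKM per normal library to 387, 395 and 395 in the aging ones and 311, 327 and 311 with the medium, at -0.47 ± 0.04 (adjusted p = 9.12e-11) and -0.23 ± 0.04 (adjusted p = 1.34e-05). Gabarapl1, of the family that coats autophagosomes, went the same way with -0.44 ± 0.05 and -0.29 ± 0.05, as did the receptor Calcoco1 with -0.44 ± 0.07 and -0.55 ± 0.08. Wipi1, which binds the forming membrane, fell by 0.56 ± 0.06 in aging RGCs and rose by 0.28 ± 0.06 with the medium. Atg3, the enzyme that attaches LC3 to lipid, was at 12.03, 11.4 and 11.5 FPKM in normal RGCs, 13.2, 13.5 and 12.7 in aging RGCs and 17.2, 18.7 and 17.4 with the medium, and its rise with the medium was 0.51 ± 0.06 (adjusted p = 1.05e-07). Atg14, a subunit of the kinase complex that starts autophagosomes, was lowest with the medium, at -0.74 ± 0.10 (adjusted p = 6.33e-07), and Ulk1, the kinase upstream of it, changed by -0.49 ± 0.09 (adjusted p = 2.12e-05).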

How the data were processed

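Poly(A) RNA of 9 cultures was sequenced, and the labels give mouse build mm10. The authors deposited expected counts, fractional for 6.92 to 7.38% of the values in a library, and FPKM for each gene and library. No source used here names the aligner, the counter or the strand setting. The expected counts were rounded to whole numbers and fitted over all groups with edgeR 4.0.16 (filterByExpr, TMM factors from 0.956 to 1.03, quasi-likelihood test, Benjamini-Hochberg) in R 4.3.3; DESeq2 1.42.0 and limma 3.58.1, on log2(FPKM + 1) and log2(FPKM + 0.1), were alternatives. The deposited FPKM were used without further scaling. Role counts under the same alternatives were added after seeing the data.

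The members and lists were chosen with earlier results of these data known. Roles of 10 members were assigned after the table was read. Named were non-overlapping members past the threshold whose mean log2 CPM reached 1, up to 8 in each direction per comparison; every member past a log2 fold change of 1; the 2 most abundant of each role; and up to 3 genes in each direction of the TFEB and autophagy lists, with Tfeb, Tfe3, Mitf and Sqstm1. Hexa, Gusb, Aga, Hyal2, Sgsh, Sumf1, Ppt1, Ppt2, Lamp2, Mcoln1, Cd68, Cd164, Litaf, Slc11a2, Gnptg, Ap3b1, Ap1s1, Ap1g1 and Entpd4b were added after their values were seen, and a gene named in any comparison is given in the others; a few are not reported here. Same-numbered replicates did not deviate together (correlations of -0.05 to 0.05), and were not treated as pairs. Promoters are those of RefSeq on GRCm38.p6.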

Additional observations from a re-analysis of the deposited data

How the results depend on the processing

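Of 138 results for single genes, 109 kept their call under every alternative tried and 29 gained, lost or turned it in at least 1. The replicate number as a block gave 29 lysosome genes up and 25 down in aging against normal RGCs, 17 and 51 with USCs medium against aging RGCs and 19 and 45 against normal RGCs, and the numbers do not pair the libraries. With USCs medium against aging RGCs the lysosome genes called higher numbered 10 without TMM factors, 8 by limma with 1 added to the FPKM and 9 with 0.1 added, with 58, 56 and 55 called lower. Against normal RGCs they numbered 11, 8 and 8, with 63, 58 and 58 called lower. Of all 12145 genes, the same settings called 6545, 5484 and 5547 in either direction against aging RGCs. Against normal RGCs they called 7482, 6516 and 6563. For the 60 tested TFEB, nutrient sensing and autophagy genes together, those called higher with the medium numbered 7, 7 and 7 against aging RGCs and 5, 3 and 5 against normal RGCs. Of these 60 genes edgeR with TMM factors called 11 and 10 higher, where 27.1% and 30.6% of all genes were called higher. The cause of the differences between settings was not tested. Asking for a fold change of at least 1.5 left 2 lysosome genes up and 7 down in aging RGCs, 2 and 9 with the medium against aging RGCs, and 3 and 13 against normal RGCs, and a log2 change past 1 in size left 0 and 2, 0 and 2, and 1 and 5, by construction a smaller set. Tfe3 turned from 0.00 to -0.1368 and -0.1423 by limma with the medium against aging RGCs, and Lamp1 between the medium and normal RGCs turned to -0.0309 without TMM factors and to -0.03033 and -0.03047 by limma. Leaving out a library at a time gave 26 to 29 lysosome genes up and 18 to 26 down in aging RGCs, 14 to 18 and 48 to 51 with the medium against aging RGCs, and 18 to 19 and 41 to 47 against normal RGCs; for the other pathway genes the ranges were 10 to 12 and 20 to 25, 9 to 12 and 21 to 24, and 8 to 10 and 25 to 29. Scarce genes, such as Arsg, below 1 FPKM in every library, and Ap3b2, below 2 FPKM in every library, rest on few reads.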
